A study of Homo sapiens with 24 samples.

Results

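The SR and hnRNP splicing factors are the genes whose symbols are SRSF followed by a number or begin with HNRNP. The gene count table held 37 of them among 19475 genes, 12 SRSF and 25 HNRNP genes, with 133 of the 53016 transcripts. They were measured by RNA sequencing in 4 human cancer cell lines: A549, from a lung adenocarcinoma; H1299, from a lung carcinoma; K562, from a chronic myeloid leukaemia in blast crisis; and THP-1, from an acute monocytic leukaemia. In each line 3 libraries are labelled control and 3 are labelled CBX7 knockdown, 24 libraries in 8 groups. The extraction protocol describes lentiviral delivery of shCBX7 or shCtrl, the latter being the control hairpin, whereas the treatment label reads siCBX7 for both arms. Doses, times and the number of hairpins are not given, and nothing states that the 3 libraries of a group came from separate cultures, so the p-values measure only the spread between these libraries. CBX7 is a chromobox subunit of Polycomb repressive complex 1.

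CBX7 itself went against the labels. Its level in CPM (the estimated count relative to the library total, scaled by the trimmed mean of M values, TMM) was 5.57 to 6.45 across the 3 A549 control libraries and 49.9 to 52.4 across the 3 labelled knockdown. The mean of each arm was 32.2 and 396.1 CPM in H1299, 13.7 and 39.2 CPM in K562, and 15.8 and 36.4 CPM in THP-1. The lowest of the 3 knockdown-labelled libraries lay above the highest control library in every line. Whether the labels of the arms were exchanged cannot be told from these files. All directions below are those of the libraries labelled knockdown against the libraries labelled control, and an exchange would turn every one of them. Library totals were 71087023 to 132499841 estimated counts. As a check of the lines, 10 erythroid genes summed to between 2425 and 4670 CPM in K562 libraries and to no more than 47.1 CPM in any other line. For 10 monocyte genes the sum in THP-1 libraries lay between 1581 and 1737 CPM, and the other lines stayed at or below 192 CPM. The summed level of 6 epithelial genes was at least 5994 CPM in A549, at least 825 CPM in H1299, 524 to 799 CPM in K562 and at most 4.32 CPM in THP-1.

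SR proteins carry RNA recognition motifs and a tail rich in arginine and serine. They bind exonic enhancers and recruit the U1 and U2 particles to splice sites, and their tails are phosphorylated by the SRPK and CLK kinases. hnRNP proteins coat nascent transcripts, often by binding silencers, and frequently oppose SR proteins at the same exon. Many genes of both families limit their own output through poison exons or alternative 3′ ends that send the transcript to nonsense-mediated decay. Each library is a bulk sample of a line, so fewer cells making a transcript and less of it per cell cannot be told apart.

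The families were abundant in all 4 lines. The hnRNP genes together held 7682 ± 99 TPM in A549 control libraries, 8822 ± 342 in H1299, 11766 ± 524 for K562 and 10661 ± 151 for THP-1 (SD, n = 3), with TPM, the length-corrected share of a transcript in its library, summed per gene. The SRSF genes together held 1771 ± 4.2 TPM in A549, 1799 ± 21 in H1299, 2479 ± 34 for K562 and 2414 ± 34 for THP-1. In both families the control means of K562 and THP-1 were above those of A549 and H1299.

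HNRNPA1, which binds silencers and shuttles between nucleus and cytoplasm, was the most abundant member of every line. Its control level was 1440 ± 22 TPM in A549, 2713 ± 48 in H1299, 3193 ± 93 for K562 and 2218 ± 36 for THP-1, an order in which no neighbouring lines overlapped. By gene FPKM (fragments per kilobase of transcript, scaled to depth), HNRNPA2B1, a relative in the same A/B group, was among the 3 highest members of all 4 lines. HNRNPK, which binds runs of C, was among the 3 highest in A549 and K562, HNRNPUL1 in H1299 and HNRNPH1, which binds runs of G, in THP-1. HNRNPUL1 stood at 882 ± 29 TPM in H1299 and 273 ± 3.7 TPM in K562. HNRNPU, a nuclear scaffold protein, was lowest in the line where HNRNPUL1 was highest, with 241 ± 9.8 TPM in H1299, 352 ± 4.5 in A549, 471 ± 16 in K562 and 773 ± 18 in THP-1.

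The least abundant detected members by FPKM were SRSF12, SRSF10, SRSF8 and HNRNPA1L2. The place of SRSF10 depended on the scale, since by mean TPM it lay above HNRNPLL in every line. In K562 control libraries SRSF10 had 9.75 FPKM but 73.0 TPM, where HNRNPLL had 20.7 FPKM and 48.2 TPM. The 2 genes were closest for H1299, at 32.8 and 31.5 TPM with overlapping libraries. Of the 16 transcript entries of SRSF10, 8 repeat an accession, so its level is uncertain. SRSF12, a splicing repressor, had a mean of 1.17 TPM in A549, 1.67 in H1299 and 0.458 in THP-1 control libraries, and was listed at 0 in all 3 K562 control libraries. The 4 HNRNPCL genes, copies related to HNRNPC, reached at most 2 estimated counts in any library, and 3 of them were at 0 in all 24 libraries. They passed no filter on low counts, which left 33 members tested in A549, H1299 and THP-1 and 32 in K562. Among the 12 control libraries, 30 of 33 members differed between lines by edgeR's quasi-likelihood test at an adjusted p below 0.05. The share called among all 16305 genes was 96.1%, so such a difference was the rule in the whole table. HNRNPF, HNRNPH2 and HNRNPR were not called, with adjusted p of 0.0516, 0.128 and 0.238.

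**Figure D1:**
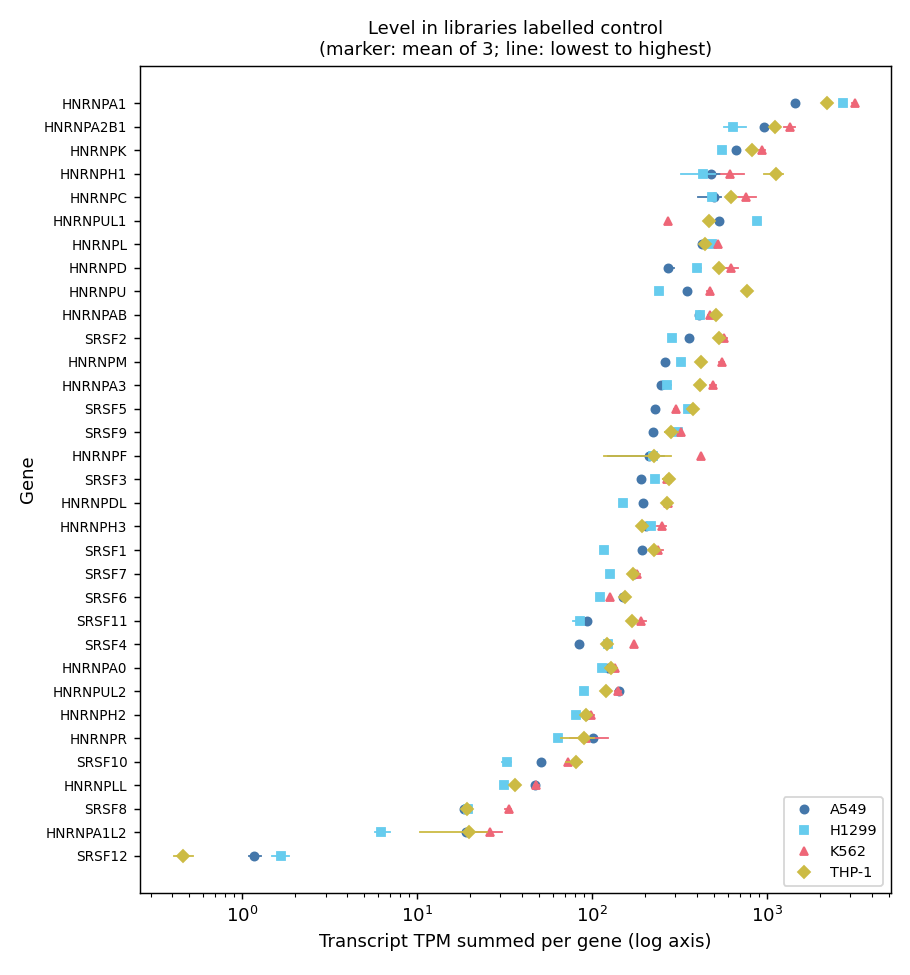
Transcript TPM summed per gene (log axis) for the 33 detected members in the libraries labelled control; markers give the mean of 3 libraries in each line and horizontal lines the lowest to highest library. HNRNPA1 is the highest member in every line and SRSF12 the lowest in the 3 lines where it is drawn, its K562 libraries being at 0, and the long lines of HNRNPF mark libraries that lie below the others.

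In A549, libraries labelled knockdown had lower levels of most members. Of 33 tested, 23 fell and 1 rose, while 28.4% of all 14980 genes tested fell and 27.2% rose (edgeR quasi-likelihood test, Benjamini-Hochberg adjusted p below 0.05 over all genes). The median log2 fold change was -0.36 over the members and 0.01 over all genes. Of the lower calls, 7 were SRSF genes and 16 were HNRNP genes. The only gene that rose, SRSF12, went from 1.63, 1.68 and 1.91 CPM to 3.00, 3.45 and 3.46 CPM, below the level of 5 CPM asked of a named change.

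HNRNPL, which binds CA repeats and represses the exons beside them, had the largest fall in A549. Its level was 365, 361 and 349 CPM in control libraries and 191, 181 and 178 CPM in the libraries labelled knockdown. The arms were far apart, and the log2 fold change was -0.97 ± 0.03 (SE; adjusted p = 1.3e-10). SRSF7, an SR protein with a zinc knuckle that also takes part in mRNA export, fell from 184, 175 and 177 CPM to 96.0, 94.6 and 96.5 CPM. Its log2 fold change was -0.90 ± 0.03 (adjusted p = 2.3e-10), and the arms did not overlap. SRSF3, the smallest SR protein and an export adaptor, fell from 241, 251 and 247 CPM to 129, 142 and 142 CPM, a log2 fold change of -0.84 ± 0.04 (adjusted p = 2.1e-09). HNRNPD, also called AUF1, which binds AU-rich elements in mRNA 3′ ends, was at 263, 234 and 236 CPM and at 143, 137 and 138 CPM. It fell by 0.81 on the log2 scale (adjusted p = 4.9e-08), again with no overlap. These 4 genes span both families and were the lowest by the rule for named genes, which asks for arms that do not overlap. In A549 that held for 78.8% of the members and 63.7% of all genes.

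In H1299, 21 of 33 members fell and 4 rose on the estimated-count scale, where 35.5% of all 14621 genes fell and 33.4% rose, but by TPM the same libraries gave 14 higher and 7 lower, beside 62% and 17.8% of all genes. The median log2 fold change was -0.34 over the members and 0.00 over all genes on the count scale. By TPM the median of all genes shifted to 0.38 and that of the members to 0.11, so the members lay 0.26 below the median of all genes. With the medians of all genes set equal, 19 members fell and 4 rose, beside 38.4% of all genes in each direction. The deposited gene FPKM, also scaled for length, gave medians of -0.22 over 32 members and 0.07 over all genes. By FPKM 23 members were below 0 and 9 above. Transcript length was taken as a gene's estimated counts, scaled to library totals, over its TPM in all 24 libraries. It thus draws on the counts tested and not on an annotation. In H1299 the log2 fold change rose with that length, with a Spearman rho of 0.57 across 14621 genes and 0.37 across the members. Genes share libraries and are not replicates. After removal of that trend, 23 fell and 5 rose, beside 34.9% and 26.5% of all genes. In the other lines rho across all genes was -0.09 to 0.10. The part of transcript length in the H1299 counts was not tested further.

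The lowest genes of H1299 were below 0 by estimated counts, by TPM and with the length trend removed. HNRNPAB, a relative of HNRNPD that binds AU-rich and hairpin RNA, was at 390.4, 389.5 and 388 CPM in control libraries and at 184, 186 and 194 CPM in those labelled knockdown. It fell by 1.05 on the log2 scale (adjusted p = 7.1e-11), and by TPM its change was -0.59. SRSF7 was at 165, 166 and 166 CPM against 91.7, 90.0 and 86.3 CPM, a log2 fold change of -0.89 ± 0.03 (adjusted p = 5.1e-10) and of -0.43 by TPM. HNRNPA0, an AU-rich element binding protein encoded by a gene without introns, was at 177, 176 and 181 CPM against 101, 105 and 103 CPM. Its log2 fold change was -0.79 ± 0.03 (adjusted p = 6.8e-10), and -0.34 by TPM. SRSF3 was at 380.2, 383 and 381 CPM against 230.3, 252 and 241 CPM, a log2 fold change of -0.66 ± 0.03 (adjusted p = 4.9e-09) and of -0.21 by TPM. Genes were named only where the arms did not overlap, which held for 81.8% of the members and 74.5% of all genes in H1299.

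The 4 members higher in H1299 were all HNRNP genes. HNRNPA1L2, a retrocopy of HNRNPA1, went from 6.72, 7.01 and 8.28 CPM to 21.6, 21.6 and 21.8 CPM. Its log2 fold change was 1.56 ± 0.08 (adjusted p = 1.1e-08), while HNRNPA1 fell from 2605, 2579 and 2562 CPM to 1721, 1771 and 1728 CPM in the same libraries. The copies are nearly identical in sequence and the counting could divide reads between them, so the level of the retrocopy is uncertain. HNRNPLL, a relative of HNRNPL known for controlling CD45 exons in lymphocytes, rose from 49.0, 48.1 and 50.2 CPM to 65.4, 69.1 and 70.6 CPM, a log2 fold change of 0.48 ± 0.04 (adjusted p = 6.7e-07). HNRNPK rose by a log2 value of 0.15 ± 0.02 from 888, 886 and 876 CPM to 966, 983 and 983 CPM. HNRNPU was at 895, 869.9 and 834 CPM against 934, 919.5 and 957 CPM, a log2 fold change of 0.11 ± 0.03. Its change was 0.57 by TPM but reversed to -0.57 once the length trend was removed. By TPM, HNRNPA1L2, HNRNPLL and HNRNPK changed by 1.85, 0.89 and 0.61, where the median of all genes was 0.38.

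In K562, 16 of 32 members fell and 3 rose, beside 27.5% and 28.9% of all 13876 genes. The median log2 fold change was -0.23 over the members and 0.01 over all genes. SRSF1, the founding SR protein and an oncogene in several tissues, was at 647, 602 and 556 CPM in control libraries and at 333, 340.4 and 355 CPM in those labelled knockdown. Its log2 fold change was -0.81 ± 0.05 (adjusted p = 1.1e-06), with no overlap between arms. HNRNPM, which binds GU-rich RNA, fell from 649.8, 635 and 601 CPM to 366, 366 and 357 CPM, a log2 fold change of -0.79 ± 0.04 (adjusted p = 1.3e-07). HNRNPA2B1 fell from 2456, 2306 and 2104 CPM to 1349, 1315 and 1417 CPM, a log2 fold change of -0.75 ± 0.06 (adjusted p = 2.6e-06). HNRNPA3, another member of the A/B group, fell from 1174, 1141 and 1069 CPM to 744, 734 and 773 CPM, by 0.59 on the log2 scale. The control values of SRSF1 and HNRNPA2B1 were spread more widely than those of the libraries labelled knockdown. In K562 the arms did not overlap for 75% of the members and 65.6% of all genes.

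The 3 members higher in K562 were HNRNPA1L2, HNRNPLL and SRSF6. SRSF6, which regulates tau exons among others, rose from 224, 213 and 214 CPM to 242, 245 and 238 CPM, a log2 fold change of 0.16 ± 0.04 (adjusted p = 0.0046). HNRNPLL rose from 69.4, 65.1 and 64.7 CPM to 74.9, 76.9 and 71.8 CPM, a log2 fold change of 0.17 ± 0.05 (adjusted p = 0.016). HNRNPA1L2 went from 31.7, 27.1 and 22.2 CPM to 36.0, 34.7 and 45.0 CPM (log2 fold change 0.51 ± 0.17, adjusted p = 0.044), and its call was lost when any of 5 libraries was left out. The call of HNRNPLL was lost without the second control or the second knockdown-labelled library, which left 1 member called higher.

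In THP-1, only HNRNPLL was called, beside 6.3% of all 14259 genes higher and 3.93% lower, and 0 of 33 members were called lower by edgeR. At an unadjusted p below 0.05, 8 members were lower and 2 higher, beside 11.5% and 14.3% of all genes. DESeq2 called 5 lower and 2 higher, beside 6.84% and 9.28% of all genes. HNRNPLL rose from 43.7, 46.7 and 46.8 CPM to 58.2, 63.5 and 55.7 CPM, a log2 fold change of 0.37 ± 0.09 (adjusted p = 0.037). That call was lost with any library but the second knockdown-labelled one left out, the adjusted p then being 0.073 to 0.138. The median log2 fold change was -0.11 over the members and 0.01 over all genes.

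The second knockdown-labelled library of THP-1 stood apart in these genes by CPM. On that scale it was the highest of its arm for 28 of 33 members, 84.8%, against 41.7% of all genes. It lay above the mean of the other 2 by a median log2 value of 0.24 over the members and -0.01 over all genes. This comparison was not repeated by TPM. HNRNPK and HNRNPA0 were both highest there by CPM. By TPM the knockdown-labelled libraries had 814, 722 and 813 for HNRNPK and 98.4, 107 and 104 for HNRNPA0. Without the second knockdown-labelled library, 19 members were called lower and 2 higher on estimated counts, beside 11% and 12.1% of all genes. The members' median was then -0.19. HNRNPA0 was then the lowest, with a log2 fold change of -0.42 ± 0.06, followed by HNRNPA1 at -0.40 ± 0.05 and SRSF5 at -0.37 ± 0.05. In the fit of all 24 libraries, which shares 1 estimate of the spread, 14 members were called lower in THP-1 and 2 higher, beside 10.2% and 12.2% of 16797 genes.

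**Figure D2:**
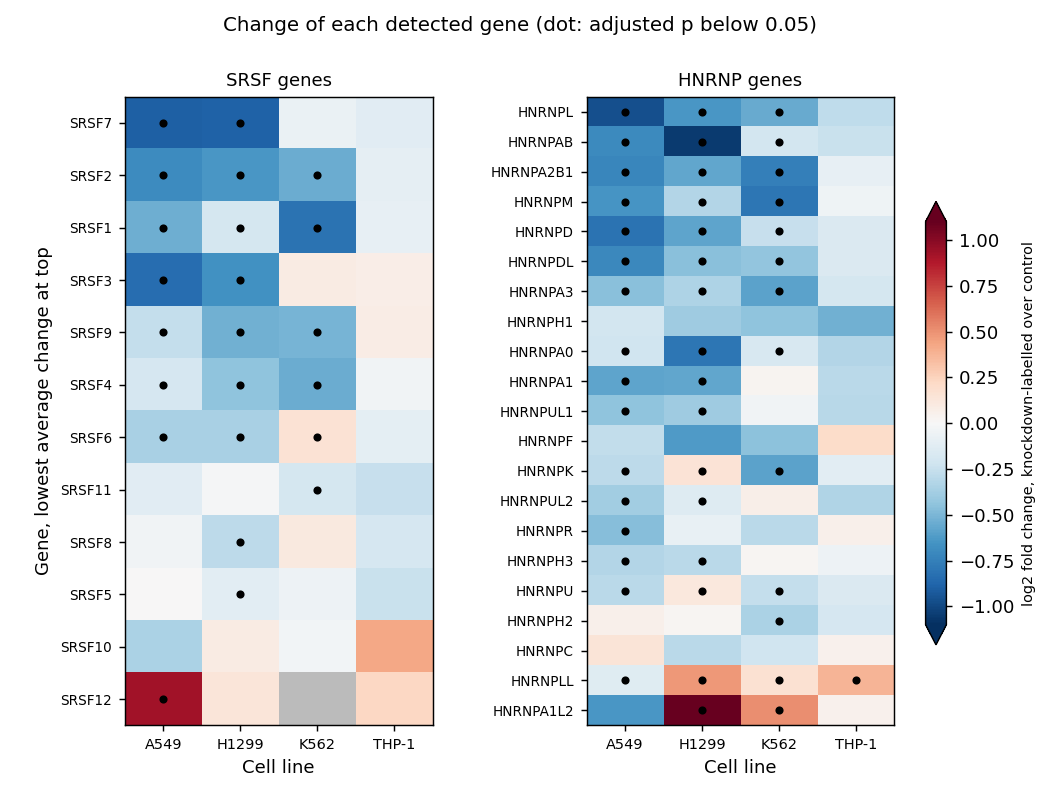
Log2 fold change of the libraries labelled knockdown over control for 12 SRSF and 21 HNRNP genes (rows, by average change) in 4 lines (columns) on the estimated-count scale; a dot marks an adjusted p below 0.05 and grey a gene not tested. Blue dominates in A549, H1299 and K562, HNRNPLL is higher in 3 lines, and THP-1 has a single dot. By TPM the median of the H1299 column moves from -0.34 to 0.11, and that of all genes to 0.38.

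In the separate fits of each line, no member was called in the same direction in all 4 lines. Some members called lower in 3 lines by those fits were also called lower in THP-1 by the fit of 24 libraries. These were HNRNPL, HNRNPAB, HNRNPA0 and HNRNPA3, with THP-1 log2 fold changes of -0.28, -0.25, -0.32 and -0.19. Averaged over the lines in the fit of 24 libraries, 25 of 33 members were lower and 3 higher, beside 21.2% and 28.9% of 16797 genes. The lowest averages were HNRNPL at -0.58 ± 0.02 on the log2 scale, HNRNPAB at -0.52 ± 0.03, HNRNPA2B1 at -0.51 ± 0.04 and SRSF7 and SRSF2 at -0.47 each. SRSF2, an SR protein confined to the nucleus, fell in A549, H1299 and K562, from 323, 318 and 322 CPM to 192, 204 and 198 CPM in the first of these. The 3 higher averages were HNRNPA1L2 at 0.40, HNRNPLL at 0.25 and SRSF12. The fitted average of SRSF12 is not given, since it rests on K562, where the gene was at 0 in all 3 control libraries and failed the filter; in the other lines its log2 fold change was 0.93, 0.13 and 0.22. HNRNPLL was nevertheless called lower in A549, from 61.1, 56.2 and 56.3 CPM to 52.3, 52.0 and 54.2 CPM.

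**Figure D3:**
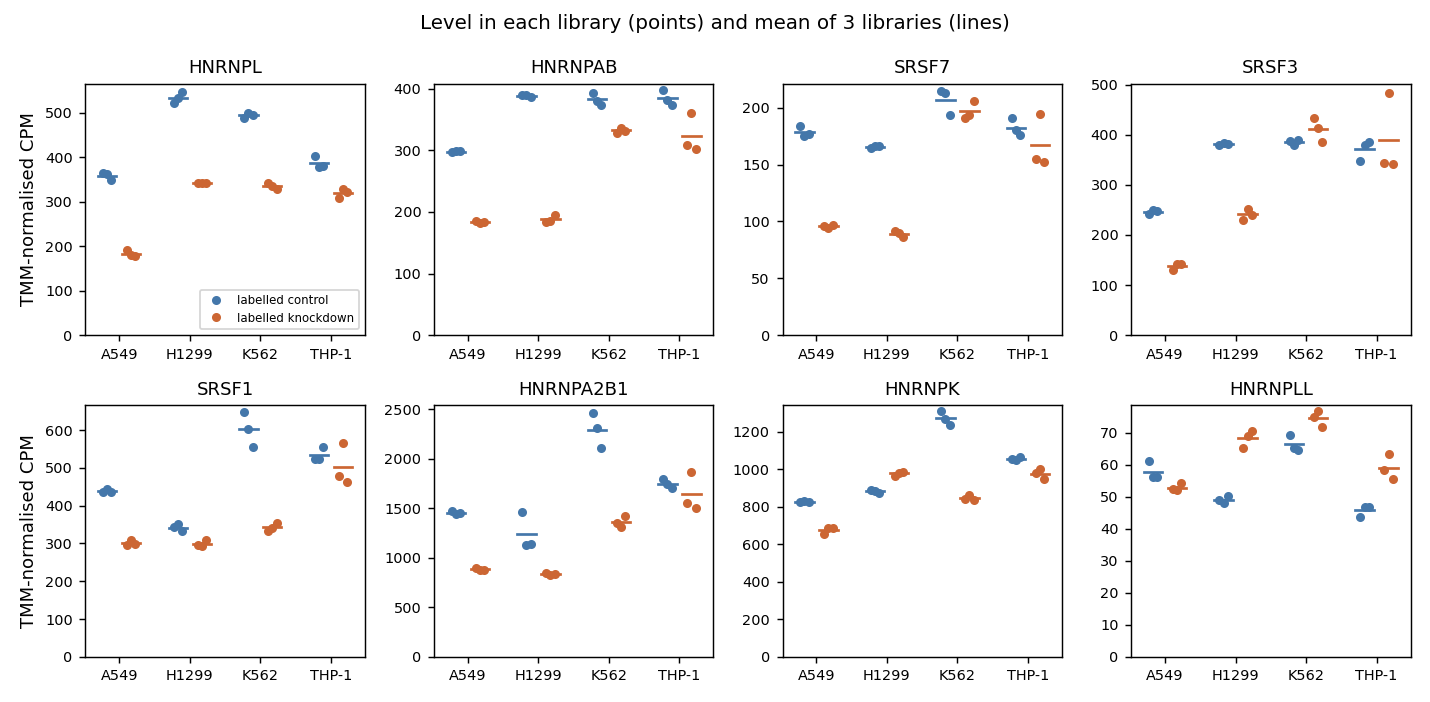
TMM-normalised CPM of 8 members in each of 24 libraries; points are libraries, short lines the means of 3, blue the control label and orange the knockdown label. HNRNPL and HNRNPAB separate the arms in all 4 lines, though in THP-1 neither was called, SRSF7 and SRSF3 in A549 and H1299, and the second knockdown-labelled THP-1 library is the highest of its arm for SRSF7, SRSF3, SRSF1 and HNRNPA2B1.

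The change differed between lines for 28 of 33 members by the interaction test of arm and line, beside 64.9% of all genes. That count includes SRSF12, whose K562 term rests on control libraries at 0. The test used estimated counts, on which the H1299 changes followed transcript length. It was not repeated by TPM or with that trend removed. The smallest p belonged to HNRNPK, HNRNPAB, HNRNPL and SRSF7. HNRNPK had 824, 829 and 826 CPM in A549 control libraries and 657, 688 and 688 CPM in those labelled knockdown, and 1308, 1270.0 and 1238 CPM against 842, 863 and 838 CPM in K562. It was thus lower in both of these lines and higher in H1299, with an interaction adjusted p of 1.18e-09 (edgeR). SRSF7 was lower in A549 and H1299, whereas in K562 its 215, 213 and 193 CPM overlapped the 191, 194 and 206 CPM of the libraries labelled knockdown (interaction adjusted p = 2.89e-07, edgeR). Without the third K562 control library, SRSF7 was called lower there too, with a log2 fold change of -0.12 (edgeR adjusted p = 0.042). SRSF3 shared that order: K562 values of 388, 379 and 390.3 CPM overlapped 433, 413 and 386 CPM, with an interaction adjusted p of 4.5e-06 (edgeR). HNRNPL fell most in A549, and its K562 values went from 489, 499.6 and 495 CPM to 343, 336 and 329 CPM. HNRNPAB fell by 1.05 in H1299 and by 0.20 in K562 on the log2 scale, from 394, 380.1 and 374 CPM to 329, 337 and 332 CPM in the latter.

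**Figure D4:**
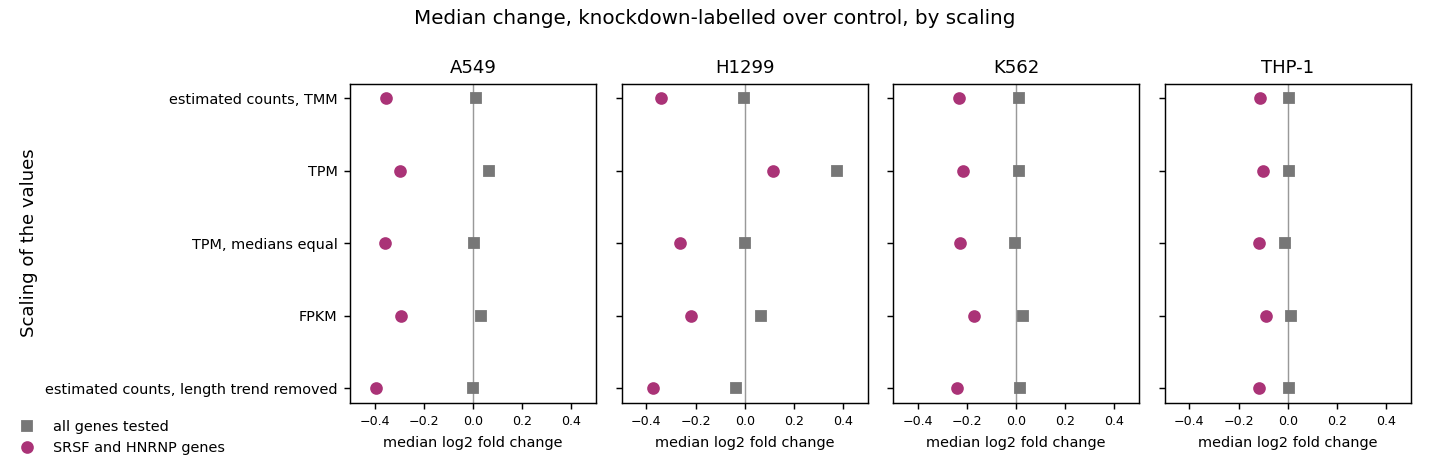
Median log2 fold change of all genes tested (grey squares) and of the SRSF and HNRNP genes (purple circles) under 5 scalings of the values in each line. The members lie left of all genes in every row, and the row for TPM in H1299 moves both to the right, to 0.38 and 0.11.

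By TPM the hnRNP sum went from 7682 to 5968 in A549, from 11766 to 9886 in K562 and from 10661 to 9407 in THP-1, whereas in H1299 it was 8822 ± 342 and 9007 ± 104. HNRNPA1 made up 18.7% of the hnRNP sum in A549 control libraries and 17.2% in those labelled knockdown, and 30.8% and 27.9% in H1299. In K562 its share went the other way, from 26.4 to 27.7% across control libraries to 32.6 to 35.1% across those labelled knockdown. With 3 against 3 libraries an exact permutation test cannot give a two-sided p below 0.10, so these shares are a description.

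The bases before the start of 5 members are shown to compare genes that fell with HNRNPLL, which rose in 3 lines. RefSeq starts on GRCh38.p14 matched 34 of the 37 members with 48 starts. The capitals mark CCAAT (the NF-Y box), GGGCGG (the SP1 box), CCGGAAG (an ETS site), GCGGGAA (an E2F site), CACGTG (an E box) or GCGCATG (an NRF1 site) on either strand, and such matches may overlap. Each line holds the 100 bases just before the start.
SRSF3, chr6:36594262-36594361, plus strand: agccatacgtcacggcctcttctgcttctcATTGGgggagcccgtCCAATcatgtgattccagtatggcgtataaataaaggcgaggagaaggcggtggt
HNRNPAB, chr5:178204433-178204532, plus strand: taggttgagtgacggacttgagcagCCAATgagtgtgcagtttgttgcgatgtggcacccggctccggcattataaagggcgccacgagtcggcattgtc
HNRNPA2B1, chr7:26200747-26200846, minus strand: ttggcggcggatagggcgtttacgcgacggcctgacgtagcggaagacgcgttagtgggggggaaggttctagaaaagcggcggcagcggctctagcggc
SRSF1, chr17:58007247-58007346, minus strand: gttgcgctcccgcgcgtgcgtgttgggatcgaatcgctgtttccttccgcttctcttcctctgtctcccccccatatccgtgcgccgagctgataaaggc
HNRNPLL, chr2:38602929-38603028, minus strand: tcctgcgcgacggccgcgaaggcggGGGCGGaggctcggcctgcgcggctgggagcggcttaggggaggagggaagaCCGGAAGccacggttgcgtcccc

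Over the 250 bases before each start, CCAAT stood at 47.9% of the members' starts and at 32.0% of all 35116 starts. GGGCGG stood at 56.25% and 42.6%, CCGGAAG at 10.4% and 8.52%, and CACGTG at 14.6% and 6.345%. GCGGGAA stood at 22.9% of the members' starts, in 11 genes, and at 5.52% of all starts, and GCGCATG at 6.25% and 3.77%. In the windows printed, SRSF3 and HNRNPAB had the CCAAT box, HNRNPLL had GGGCGG and CCGGAAG, and HNRNPA2B1 and SRSF1 had none of the 6. A match describes the letters only.

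Transcript usage, the share of each transcript in its gene's TPM, changed in few members. Of 25 members with at least 2 tested transcripts, edgeR's diffSpliceDGE made 2 gene-level calls in A549, 4 for H1299, 5 for K562 and 1 for THP-1, beside 4.82%, 8.75%, 6.19% and 1.29% of all genes. No single transcript of a member passed at the transcript level, where 3, 2, 4 and 0 had an unadjusted p below 0.05, while limma's diffSplice on log2(TPM + 1) called 6, 7, 9 and 2. On simulated data diffSpliceDGE made more false calls than its nominal rate, so limma's adjusted p stands beside each gene below. The limma test was not itself tried on simulated data. At the gene level limma called 3 members in A549, 5 each for H1299 and K562 and 1 for THP-1, beside 5.78%, 11.2%, 7.92% and 1.05% of all genes. The transcripts described were chosen after their values were seen.

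In A549 the genes called by edgeR were SRSF2 and HNRNPA3. The SRSF2 transcript NM_003016 made up 18.5, 18.9 and 19.7% of the gene in control libraries and 34.9, 34.9 and 35.4% in those labelled knockdown. The rise of 16.0 percentage points had no overlap and an adjusted p of 0.00039 by edgeR and 0.0022 by limma, while SRSF2 as a whole fell. Both tested transcripts have the same 663 coding bases for 221 residues in GENCODE on GRCh38, so they differ outside the coding sequence. In the other 3 lines the same share was 10.3 to 31.6% and the gene was not called, although in THP-1 the 20.3, 21.6 and 21.9% of control libraries lay above the 18.7, 15.9 and 16.8% of the others. HNRNPA3 was called with an adjusted p of 0.0044 by edgeR and 0.0028 by limma, and lost that call without the first or the third control library. Its transcript NM_001330248 went from 5.73, 6.51 and 5.05% to 12.3, 10.7 and 12.3%.

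SRSF1 and HNRNPU moved in opposite directions in H1299 and K562. The shorter SRSF1 product of 201 residues, from NM_001078166, made up 37.2, 37.1 and 30.8% of the gene in H1299 control libraries and 24.9, 24.6 and 25.5% in those labelled knockdown. In K562 its share rose from 21.1, 23.4 and 25.8% to 33.4, 34.1 and 33.9%. The adjusted p was 0.020 by edgeR and 0.041 by limma in H1299, and 0.013 by edgeR and 0.039 by limma in K562. By edgeR the H1299 call was lost without any library but the third control (adjusted p 0.059 to 0.079), and the K562 call without the first or the second control or the second knockdown-labelled library (adjusted p 0.052 to 0.070). The product of 248 residues, from NM_006924, ends in 192 coding bases that the other lacks and that encode much of the arginine- and serine-rich tail, and the shorter product ends in 51 coding bases of its own. Both are shown on GRCh38, in lower case throughout.
SRSF1 NM_006924, chr17:58005409-58005600, minus strand: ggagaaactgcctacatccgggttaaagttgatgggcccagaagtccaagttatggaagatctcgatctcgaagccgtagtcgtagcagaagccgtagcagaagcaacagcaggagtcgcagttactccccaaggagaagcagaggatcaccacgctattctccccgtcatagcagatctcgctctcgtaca
SRSF1 NM_001078166, chr17:58005750-58005800, minus strand: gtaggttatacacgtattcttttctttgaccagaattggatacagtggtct

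The HNRNPU transcript NM_004501, for the product of 806 residues, rose in H1299 from 59.2, 63.7 and 67.8% to 78.4, 76.8 and 78.4%. In K562 it went from 78.3, 76.8 and 77.4% to 71.7, 68.7 and 69.8%. The arms did not overlap in either line. The adjusted p was 0.0028 by edgeR and 0.0091 by limma in H1299, and 0.023 by edgeR and 0.087 by limma in K562. The K562 call by edgeR was lost without any library but the first knockdown-labelled one, with an adjusted p of 0.069 to 0.088. Whether the shares of SRSF1 and HNRNPU changed differently between the lines was not tested. The product of 825 residues, from NM_031844, holds 57 further coding bases.
HNRNPU NM_031844, chr1:244863617-244863673, minus strand: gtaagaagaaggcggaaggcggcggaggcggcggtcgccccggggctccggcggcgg

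HNRNPA1 changed little in usage. Its transcript NM_031157 made up 11.4, 10.7 and 11.02% of the gene in H1299 control libraries and 8.06, 8.07 and 8.12% in those labelled knockdown. The fall of 2.95 percentage points was called by edgeR (adjusted p = 0.0089) and not by limma (adjusted p = 0.075).

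HNRNPLL had the largest shift of K562. NM_001142650, whose coding start differs and gives 537 residues in place of 542, rose from 9.51, 14.8 and 8.92% to 47.0, 37.1 and 33.4%, with an adjusted p of 0.0011 by edgeR and 0.0011 by limma. In the other 3 lines the same share ranged from 6.28 to 43.6% and the arms overlapped. SRSF11, which carries 14 tested transcripts, had an adjusted p of 3.1e-07 by edgeR and 2.1e-07 by limma in K562, and its main transcript NM_001350605 went from 66.1, 65.6 and 63.4% to 50.5, 56.3 and 59.8%. HNRNPUL1 was called in K562 with an adjusted p of 0.023 by edgeR and 0.044 by limma, and lost that call without any 1 control library or the third knockdown-labelled one (edgeR adjusted p 0.077 to 0.135). SRSF10, which can repress splicing when dephosphorylated, was called by edgeR in H1299 (adjusted p 0.019, and 0.013 by limma) and in THP-1 (0.0036, and 0.0026 by limma). In K562 limma alone called it (adjusted p = 0.0034, against 0.464 by edgeR). However, 8 of its 16 entries repeat an accession with the suffix _2, so its shares are uncertain. Its H1299 call was lost when any of 4 libraries was left out, and its THP-1 call without the second control or the third knockdown-labelled library.

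Limma alone called HNRNPH3, a relative of HNRNPH1, in A549 and H1299. Its adjusted p was 0.000144 in A549 and 0.0257 in H1299, against 0.453 and 0.556 by edgeR. The transcript NM_021644 went from 12.7, 14.2 and 9.94% to 3.89, 4.75 and 4.85% in A549, and from 11.1, 10.3 and 8.51% to 17.2, 15.4 and 15.9% in H1299. Limma alone also called SRSF11 in H1299, with an adjusted p of 0.0247 against 0.0906 by edgeR.

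**Figure D5:**
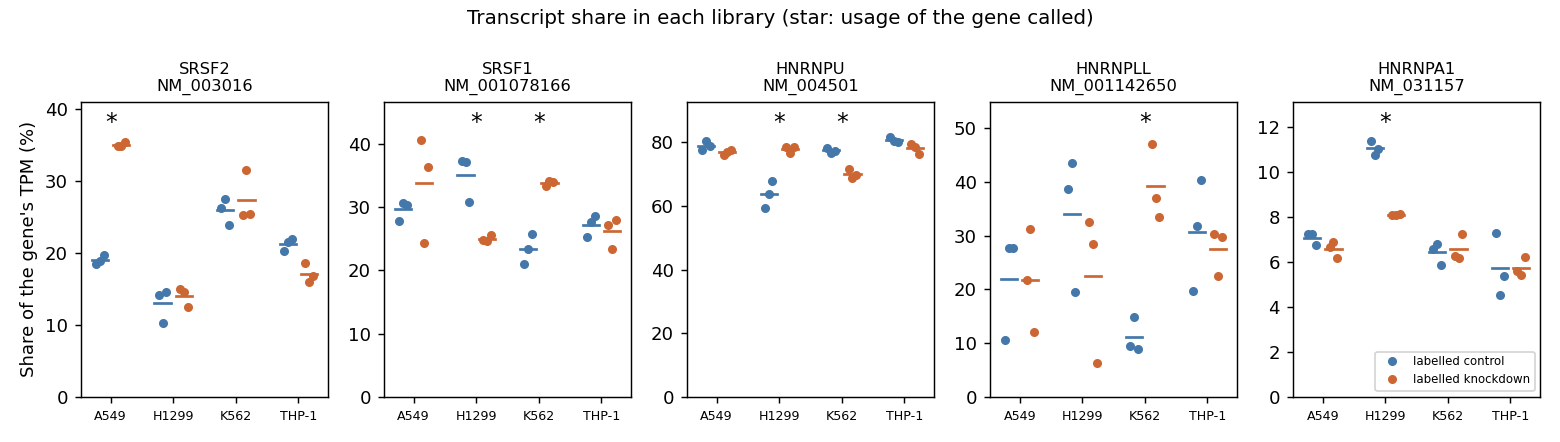
Share of the gene's TPM (%) taken by 1 transcript of SRSF2, SRSF1, HNRNPU, HNRNPLL and HNRNPA1 in each library of 4 lines; points are libraries, lines the means of 3 and a star marks a line where edgeR called the gene. The SRSF2 share separates in A549, and the SRSF1 and HNRNPU shares move in opposite directions in H1299 and K562.

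HNRNPF, which binds runs of G, was called in no line, and in 5 of its 8 groups 1 library lay far below the other 2. It was at 284, 279 and 135 CPM in A549 control libraries and at 239, 238 and 101 CPM in those labelled knockdown. In K562 it was at 519.8, 515 and 504 CPM against 197, 463 and 467 CPM, and in H1299 at 323, 318 and 307 CPM against 257, 105 and 251 CPM. In THP-1 it was at 134, 325 and 315 CPM against 299, 301 and 291 CPM. The 5 low values lay at 0.417 to 0.483 of the median of their group. In A549 they were the third library of each arm, and in H1299, K562 and THP-1 a library of 1 arm. HNRNPA1L2 had low values too, at 0.422 of the group median in THP-1 control library 2 and 0.532 in A549 knockdown-labelled library 3. Single libraries also stood apart, by less, in other members not called in the line concerned. Among them, control libraries had 441, 271 and 263 CPM for HNRNPR in K562 and 722, 537 and 721 CPM for HNRNPC in A549. For HNRNPH1 they had 605, 394 and 556 CPM in H1299. The part of such values in the missing calls of HNRNPF and these genes was not tested.

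Other splicing genes are given from 8 lists of 145 genes. For H1299 each count of higher and lower genes is followed, in brackets, by that from TPM and that with the length trend removed. The all-gene shares on those scales are the ones given above, and they differ between scales. By counts, the shares of all genes higher and lower were 27.2% and 28.4% in A549 and 33.4% and 35.5% in H1299. They were 28.9% and 27.5% in K562, and 6.3% and 3.93% in THP-1. The kinases and import factors of SR proteins (SRPK, CLK and transportin genes) had 3 of 11 higher and 4 lower in A549, 4 and 5 in H1299 (7 and 1 of 10 by TPM, 1 and 6 with the length trend removed), 1 and 8 in K562, and 0 and 1 in THP-1. In K562 CLK3 fell by 0.73 and SRPK1 rose by 0.16 on the log2 scale, and in THP-1 CLK2 fell by 0.55. SRPK2 rose by 0.75 and SRPK3 fell by 1.83 in H1299, where SRPK3 was below 1 CPM, and CLK4 rose by 0.22 and TNPO3 fell by 0.25 in A549.

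SR-related proteins had 0 of 20 higher and 13 lower in A549, 8 and 8 in H1299 (13 and 3, then 3 and 12), 1 and 13 in K562, and 0 and 2 in THP-1. TRA2B, an enhancer-binding partner of SR proteins, fell by 0.93 in A549, LUC7L, a U1-associated protein, by 1.118 in H1299 and by 0.72 in K562, and SREK1 by 0.38 in THP-1. SON, a nuclear speckle protein, rose by 1.05 in H1299. hnRNP-like RNA-binding proteins had 1 of 25 higher and 19 lower in A549, 5 and 17 of 26 in H1299 (18 and 1 of 25, then 4 and 14), 5 and 12 of 24 in K562 and 0 of 25 in THP-1. PSPC1, a paraspeckle protein, fell by 0.97 in A549, and PTBP1, the polypyrimidine tract repressor, fell by 1.05 in K562. RALYL rose by 1.42 and PCBP3 fell by 0.67 in H1299, both near 1 CPM, while PCBP2 rose by 0.09 in A549 and PCBP4 by 0.39 in K562.

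The tissue splicing regulators had 7 of 20 higher and 5 lower in A549, 9 and 5 in H1299 (14 and 0 of 15, then 4 and 6), 5 and 5 in K562, and 2 and 0 of 18 in THP-1. Their A549 and K562 counts were near the shares of all genes. ESRP1, an epithelial splicing regulator, rose from 1.19 to 2.56 CPM in THP-1 and from 0.0226 to 1.49 CPM in K562. RBM47 rose by 0.70 in THP-1, NOVA2 by 1.84 in A549 and CELF2, at 0.0572 and 0.519 CPM, by 3.17 in H1299. RBM10 fell by 0.70 in A549, RBFOX3 by 1.30 in H1299 and CELF2 by 0.41 in K562.

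The core particles were lower in A549, H1299 and K562 on the count scale. In H1299 the medians of U1 and U2 proteins and of U4/U6.U5 proteins were -0.49 and -0.48 by counts. By TPM they were -0.03 and -0.03, where the median of all genes was 0.38. With the medians of all genes set equal, they were -0.41 and -0.40. U1 and U2 proteins had 0 of 18 higher and 12 lower in A549, 2 and 15 in H1299 (5 and 8, then 1 and 13), 1 and 11 in K562, and none in THP-1. U2AF1 fell by 1.01 and SF3B1 rose by 0.76 in H1299, SNRPA1 fell by 0.85 and SF3B5 by 0.16 in A549, and U2AF2 fell by 0.69 and SNRPA1 rose by 0.16 in K562. U4/U6.U5 proteins had 1 of 22 higher and 14 lower in A549, 2 and 18 in H1299 (8 and 10, then 2 and 18), 1 and 14 in K562, and none in THP-1. LSM7 fell by 1.22 and PRPF8 rose by 0.54 in H1299, whereas in K562 PRPF8 fell by 0.60 and LSM8 rose by 0.57, and in A549 LSM3 fell by 0.57 and PRPF3 rose by 0.19.

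Sm proteins had 1 of 8 higher and 5 lower in A549, 0 and 7 of 7 in H1299 (1 and 6, then 0 and 6), 0 and 5 of 7 in K562 and none in THP-1, with medians of -0.44, -1.03, -0.21 and 0.06. Their H1299 median was -0.57 by TPM and -0.95 by TPM with the medians of all genes set equal. SNRPB fell by 0.81 in A549 and by 0.50 in K562, SNRPD2 by 1.07 and SNRPD3 by 0.34 in H1299, SNRPE by 0.18 in K562, and SNRPN rose by 0.55 in A549. Factors of nonsense-mediated decay and the exon junction had 1 of 17 higher and 14 lower in A549, 7 and 8 in H1299 (10 and 4, then 2 and 12), 1 and 11 in K562, and none in THP-1. MAGOHB fell by 0.62 and DHX34 rose by 0.25 in A549, MAGOH fell by 0.94 and SMG1 rose by 1.48 in H1299, and SMG5 fell by 0.56 and NBAS rose by 0.68 in K562.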

How the data were processed

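RNA sequencing was done in 24 libraries, 3 for each label and line, with 71087023 to 132499841 estimated counts each. The deposited gene and transcript tables hold estimated counts, and the authors also deposited gene FPKM and transcript TPM, which are scaled for length. Per the submitters' processing notes, HISAT2, StringTie and hg19 were used. Versions and the strand setting are not given in the sources used here. Per the labels' protocols a stranded total RNA kit was used.

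Rounded counts entered edgeR 4.0.16 (TMM, filterByExpr, robust quasi-likelihood, adjusted p below 0.05 over all genes tested) in R 4.3.3, within each line on 6 libraries, in 24 libraries for the average and the interaction, and in 12 control libraries between lines. limma 3.58.1 and DESeq2 1.42.0 gave alternatives. Transcript usage was tested with diffSpliceDGE. Of the low counts, 59.6% were a multiple of 4 or 1 above, and counts divided by 4 were also tried. The share expected by chance was not computed. The edgeR fits, DESeq2, the removal of the length trend and diffSpliceDGE were tested on simulated data. The limma fits and those with a replicate block were not. Replicate pairs differed by more than sampling noise (chi-square per degree of freedom of at least 8.28 on counts divided by 4).

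Named genes were, per line, the 4 most raised and 4 most lowered members called, without overlap and with at least 5 CPM in the higher arm, the 4 smallest interaction p, the extremes of each other list, and the 3 highest and lowest members by FPKM. The members and lists were chosen with earlier results of these data known. No transcript carried a non-coding accession, so a planned share of such transcripts had no value. Sequences came from RefSeq and GENCODE on GRCh38, not from the build of the counts. A sequence of 1 further transcript is not reported here.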

Additional observations from a re-analysis of the deposited data

Results flagged for a closer look

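The change between the libraries labelled knockdown and control differed between lines, by the interaction test of edgeR with adjustment over all genes, in 28 members, beside 64.9% of all genes. The adjusted p was 1.18e-09 for HNRNPK, 2.41e-08 for HNRNPAB, 4.58e-08 for HNRNPL and 2.89e-07 for SRSF7. By edgeR it was 3.09e-06 for SRSF4, 4.34e-06 for SRSF1, 4.5e-06 for SRSF3, 4.88e-06 for HNRNPA1, 6.65e-06 for HNRNPU, 7.45e-06 for HNRNPLL and 9.46e-06 for HNRNPM. It was 1.49e-05 for HNRNPA0, 1.89e-05 for SRSF6, 5.54e-05 for HNRNPUL2 and 5.85e-05 for SRSF2. It was 0.000241 for HNRNPA1L2, 0.000663 for HNRNPA2B1, 0.000706 for HNRNPH2 and 0.000763 for SRSF9. It was 0.00112 for HNRNPD, 0.00118 for SRSF8, 0.00138 for HNRNPDL, 0.00193 for HNRNPA3, 0.00426 for HNRNPH3, 0.00569 for HNRNPUL1 and 0.00715 for SRSF12, whose K562 term rests on control libraries at 0. It was 0.0141 for SRSF10 and 0.0441 for SRSF5. These tests used estimated counts and were not repeated by TPM or with the length trend removed. HNRNPU in H1299 changed by 0.11 on the count scale and by -0.57 with that trend removed.

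The share of the SRSF1 transcript NM_001078166 changed by -10.1 percentage points in H1299 and by 10.4 in K562, with every library of an arm on the same side of the other arm. That of the HNRNPU transcript NM_004501 changed by 14.3 points in H1299 and by -7.40 in K562. The difference between the lines was not tested in either case.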

How the results depend on the processing

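Of 558 recomputed fold changes of named members, 532 kept their side of the threshold, 16 lost a call, 9 gained a call and 1 reversed. A change of sign in a value not called in the main fit was not counted as a reversal. The value that reversed was HNRNPU in H1299, at -0.57 with the length trend removed. Of all 25 calls of H1299, named or not, 11 were called in the same direction by TPM and 6 in the opposite direction, the rest not being called. By FPKM, 22 were called in the same direction and 0 in the opposite one. With the length trend removed, 22 were called in the same direction and 2 in the opposite one, HNRNPU and SRSF5 (0.29). H1299 gave 14 higher and 7 lower members by TPM, an alternative chosen after seeing the data. A549 gave 3 higher by FPKM without a filter and 2 by TPM, and K562 gave 5 higher by each of the 3 FPKM fits. THP-1 gave 2 higher and 5 lower by DESeq2, 2 and 14 with all 24 libraries, and 2 lower by FPKM without a filter. THP-1 gave 1 lower with no filter, with at least 1 CPM, with counts divided by 4 and with the length trend removed. Replicate numbers did not pair libraries: correlations of same-numbered libraries were -0.0564 to 0.0343. With the replicate block, THP-1 gave 0 higher and 1 lower, and usage calls were 1 (H1299), 3 (K562) and 0 (THP-1), where requiring 5% of the gene's TPM also gave 0.

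Leaving out each library gave 1 to 1 higher and 22 to 25 lower in A549, 4 to 4 and 20 to 22 in H1299, 1 to 3 and 15 to 17 in K562, and 0 to 2 and 0 to 19 in THP-1, the 19 without the second knockdown-labelled library. Usage calls were then 1 to 4 in A549, 2 to 5 in H1299, 2 to 5 in K562 and 0 to 2 in THP-1. In A549 they were 1 without the first or the third control library and 4 without the second. H1299 had 2 without the first control or the third knockdown-labelled library. K562 had 2 without the second control, and 3 without the third control or the third knockdown-labelled library. THP-1 had 0 without the second control or the third knockdown-labelled library, and 2 without the third control, the first or the second knockdown-labelled library. THP-1 had 0 higher without any library but the second knockdown-labelled one, and 1 lower without the first knockdown-labelled library. The average gave 3 higher and 23 to 26 lower, the interaction 27 to 29 and the baseline 30 to 31. The causes were not tested.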
